A study of Mus musculus with 4 samples.

Results

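The 10 genes described here belong to the injury signaling of the retina that runs through the cytokine Lif and the transcription factor Stat3, and to the glial response that goes with it. They were chosen by name and comprise the ligands Lif, Edn2 and Fgf2, the receptor subunits Il6st and Osmr, the transcription factors Stat3 and Cebpd, the inhibitor Socs3, and the glial genes Gfap and Serpina3n. All 10 were found among the 22863 genes of the deposited table, and all 10 were tested, as 17784 genes were that reached a value of 10 in 2 or more samples. The study asked whether light during the day alters the dark adaptation of rods, and RNA-seq compared the eyes of mice in subjective and objective day. Mice were C3H/f+/+, a strain that makes melatonin and lacks the Pde6b mutation that causes retinal degeneration in other C3H mice. Subjective day mice were collected at circadian time 6 after 18 hours of darkness by the Methods, although another paragraph of the paper gives 30 hours, and objective day mice were collected at zeitgeber time 6 after light in the morning and 1 hour of darkness. Each condition had 2 samples, and each sample pooled the 4 eyes of a male and a female mouse without the anterior eye and lens, so that polyadenylated RNA of retina, retinal pigment epithelium (RPE), choroid and posterior sclera was measured together. The age of these mice is not given in the sources used here.

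When photoreceptors are stressed by bright light or by disease, a subset of Müller glia, the radial glia of the retina, release Lif. Lif binds a receptor made of Lifr and gp130 (the product of Il6st), whose Janus kinases phosphorylate Stat3, and Stat3 then switches on its own inhibitor Socs3 and glial genes such as Gfap. Stressed photoreceptors release endothelin 2 (Edn2), which acts on receptors of the glia, and Fgf2 is a survival factor that rises in the same setting.

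The glial genes Serpina3n and Gfap changed in opposite directions, and no ligand, receptor subunit or transcription factor passed the test. In objective day Serpina3n was 1.74-fold higher and Gfap fell by 27.9%, while Il6st and Stat3 differed by 2.01% and 1.62%. With limma's test and Benjamini-Hochberg adjustment over all genes tested, 2 of the 10 genes passed the threshold of 0.05, 1 higher and 1 lower. Among all genes tested 8.51% passed (1514 genes), 1.06% higher and 7.45% lower in objective day, and 10 genes are too few to set their share apart from that background. The median log2 fold change was 0.062 over the 10 genes and 0.015 over all genes tested. The values of both conditions did not overlap for 6 of the 10 genes, 4 higher and 2 lower in objective day, against 56.1% of all genes tested. The smallest p that an exact two-sided permutation test allows for 4 samples split evenly is 0.333, and the calls depend on limma's pooling of variance over genes. The samples are biological replicates by the study's design text. When the variance prior of limma did not follow the mean, 0 of the 10 genes passed, with adjusted p values of 0.131 for Gfap and 0.126 for Serpina3n.

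**Figure D1:**
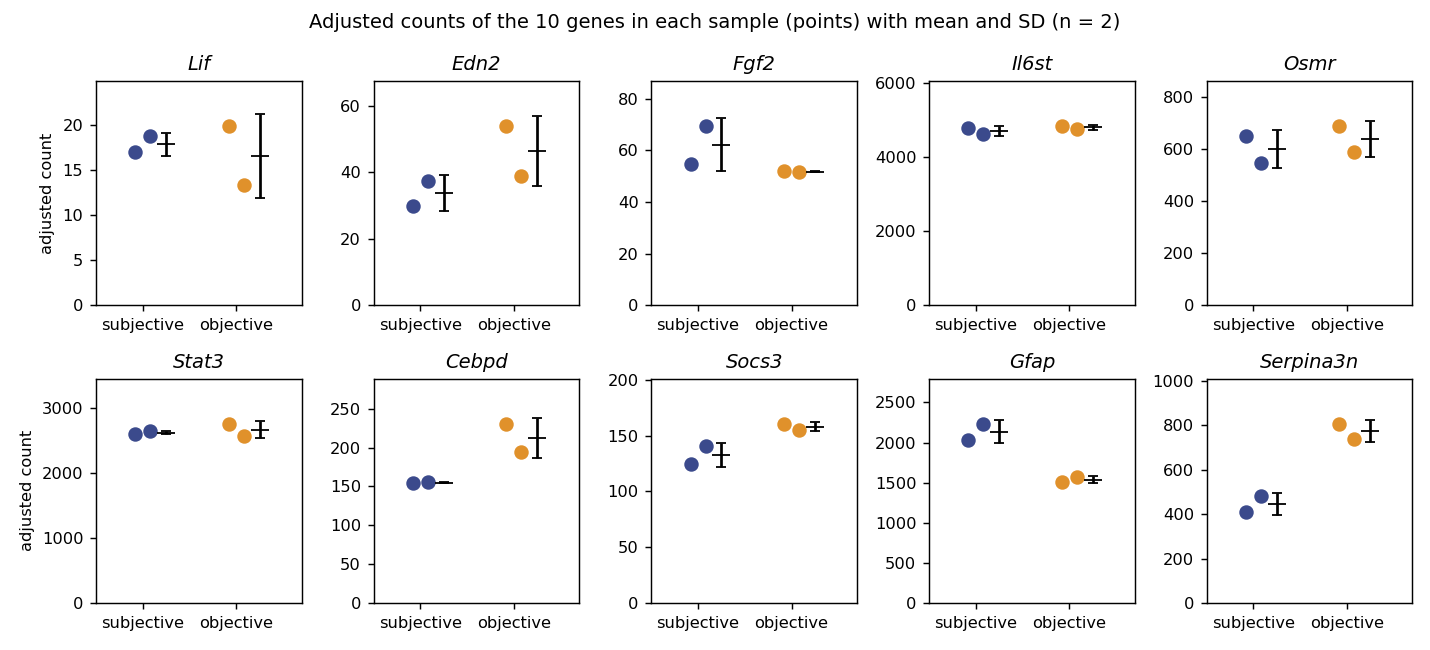
Adjusted count (y axis, linear from 0) of each of the 10 genes in the 2 subjective day samples (blue) and the 2 objective day samples (orange); the black bars are the mean and SD of each condition. The conditions stand clearly apart for Gfap, between 2037 and 2237 against between 1508 and 1568, and for Serpina3n, between 411 and 483 against between 741 and 808.

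The values are gene counts scaled by the authors to equal library sizes, called adjusted counts here, and their sums per sample ran from 33278417 to 35236783. A single read was worth between 0.929 and 1.11 adjusted counts, so the value of a weakly expressed gene is close to its number of reads. Fold changes are those of objective over subjective day on the log2(adjusted count + 1) scale, which understates the change of weakly expressed genes. Transcripts rich in GC tended to have higher log2 fold changes (Spearman correlation 0.583 over 17536 genes, which are no independent replicates). The differences of the 10 genes are therefore also given with the GC trend of every sample removed, where 1.07% of all genes passed the threshold and the same 2 of the 10 genes did. In whole tissue, fewer cells of a type and less RNA per cell cannot be told apart.

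The ligands were the weakest of the 10 genes. Lif (ENSMUSG00000034394, chromosome 11, 4257557 to 4272514, plus strand of GRCm38), the cytokine that opens the pathway, had adjusted counts of 17.0 and 18.8 (subjective day) against 19.9 and 13.3 (objective day). The objective day samples thus lay on both sides of the subjective day samples. The change on the log2 scale was -0.12 with a standard error of 0.36 (adjusted p = 0.866) and a 95% confidence interval from -0.97 to 0.72, and it was -0.22 with the GC trend removed. The interval is not adjusted for multiple genes, spans changes in either direction and is no limit of detection. Edn2 (ENSMUSG00000028635, chromosome 4, 120161206 to 120167360, plus strand) had adjusted counts of 29.95 and 37.5 in subjective day, compared with 54.0 and 39.1 in objective day. Objective day was higher in every pair of samples, but the nearest values were 37.5 and 39.1. The log2 fold change of Edn2 was 0.44 (standard error 0.27, adjusted p = 0.358) with a 95% confidence interval from -0.20 to 1.09, and 0.32 after removal of the GC trend. Leaving out 1 sample moved it between 0.22 (without objective day replicate 1) and 0.67 (without objective day replicate 2). For Fgf2 (ENSMUSG00000037225, chromosome 3, 37348346 to 37410108, plus strand) the adjusted counts were 54.9 and 69.5 (subjective day) against 52.0 and 51.6 (objective day). The fitted log2 fold change was -0.25 with a standard error of 0.22 (adjusted p = 0.518) and became 0.0062 after removal of the GC trend, so its direction depends on that step. Without subjective day replicate 2 it was -0.083, and without subjective day replicate 1 it was -0.42. The count of Fgf2 is uncertain because its exons share bases with Nudt6 on the opposite strand and with Gm43439, and the strand setting of the counting is not given in the sources used here.

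The receptor subunits were far more abundant and nearly equal in both conditions. Il6st (ENSMUSG00000021756, chromosome 13, 112464070 to 112510086, plus strand) encodes gp130, the signaling subunit shared by all cytokines of the Lif and interleukin 6 family. Its adjusted counts were 4789 and 4615 in subjective day, compared with 4839 and 4753 in objective day, so the conditions overlapped. On the log2 scale the difference was 0.029 with a standard error of 0.058 (adjusted p = 0.798), and the 95% confidence interval from -0.11 to 0.17 corresponds to between 0.928 and 1.12 times the subjective day level. With the GC trend removed the difference was 0.060. Osmr (ENSMUSG00000022146, chromosome 15, 6813577 to 6874969, minus strand) pairs with gp130 to form the oncostatin M receptor, and had adjusted counts of 652 and 549 (subjective day) against 690 and 592 (objective day). Here the difference between samples of a condition was larger than that between conditions. The log2 fold change was 0.095 with a standard error of 0.12 (adjusted p = 0.657) and a 95% confidence interval from -0.18 to 0.37, and 0.18 with the GC trend removed.

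Stat3 (ENSMUSG00000004040, chromosome 11, 100885098 to 100939540, minus strand), the transcription factor that carries the signal to the nucleus, was measured as mRNA only, which does not show its phosphorylation. The adjusted counts of Stat3 were 2605 and 2639 in subjective day, compared with 2760 and 2573 in objective day, so the objective day samples enclosed the subjective day samples. The change on the log2 scale was 0.023 with a standard error of 0.063 (adjusted p = 0.853) and a 95% confidence interval from -0.12 to 0.17, and -0.068 after removal of the GC trend. Its exons share 72 bases with Stat5a on the opposite strand. Cebpd (ENSMUSG00000071637, chromosome 16, 15887286 to 15891031, plus strand) encodes C/EBPδ, an acute phase transcription factor that Stat3 can induce. It had adjusted counts of 155 and 155 (subjective day) against 231 and 194 (objective day), and every objective day value lay above the subjective day values. The log2 fold change of Cebpd was 0.45 (standard error 0.14, adjusted p = 0.0964) with an unadjusted 95% confidence interval from 0.12 to 0.77, and 0.37 with an adjusted p of 0.272 after removal of the GC trend. It did not pass the threshold in either form. The deposited table lists Cebpd as a pseudogene, whereas GENCODE release M21 lists it as protein-coding, and its exon shares 562 bases with Spidr on the opposite strand, so its count is uncertain.

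Socs3 (ENSMUSG00000053113, chromosome 11, 117966079 to 117970047, minus strand) binds gp130 and the Janus kinases and shuts the pathway off, and its mRNA is a common readout of active Stat3. Its adjusted counts were 125 and 141 in subjective day, compared with 161 and 155 in objective day. The conditions did not overlap, with a gap from 141 to 155. Even so, the log2 fold change of 0.25 (standard error 0.14, adjusted p = 0.316; 95% confidence interval -0.08 to 0.58) did not pass the threshold, and it was 0.12 after removal of the GC trend. The ratio of Socs3 to Stat3 within a sample, which does not depend on the scaling between samples, averaged 0.0506 ± 0.0038 (SD, n = 2) for the subjective day samples and 0.0592 ± 0.0014 (SD, n = 2) for those of objective day.

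Gfap (ENSMUSG00000020932) encodes glial fibrillary acidic protein, the intermediate filament of astrocytes that Müller glia make when the retina is stressed. It lies on the minus strand of chromosome 11 of GRCm38, from 102887336 to 102900912, the chromosome that also holds Stat3, Socs3 and Lif, and no annotated exon of another gene overlaps it. The adjusted counts of Gfap were 2037 and 2237 (subjective day) against 1508 and 1568 (objective day). Both objective day samples were lower, and the gap between conditions was larger than the difference between samples of either condition. The fitted log2 fold change was -0.47 with a standard error of 0.071 (adjusted p = 0.0097) and a 95% confidence interval from -0.64 to -0.31. The longest Gfap transcript has a GC content of 55.5%, and without the GC trend the difference was larger, at -0.59 (adjusted p = 0.0287).

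Gfap was also set against Vim and markers of Müller glia, although whole tissue does not show which cells held the Gfap RNA. Vim, which encodes vimentin, the filament that Müller glia carry at all times, had adjusted counts of 7448 and 6866 in subjective day, compared with 7145 and 6387 in objective day. The ratio of Gfap to Vim within a sample was 0.273 and 0.326 (subjective day) against 0.211 and 0.246 (objective day), and the ratio of Gfap to Glul, the glutamine synthetase of Müller glia, was 0.0290 ± 0.0033 (SD, n = 2) and 0.0218 ± 0.0015 (SD, n = 2). Over the 10 Müller glia markers, the ratio of Gfap to the marker was lower in both objective day samples for 8 and overlapped between conditions for 2. The ratio of Gfap to the other 17783 genes tested was lower in both objective day samples for 79%, so the 8 of 10 is no more than the background. The overlapping markers were Aqp4, a water channel, with ratios of 0.403 and 0.445 (subjective day) against 0.396 and 0.429 (objective day), and Abca8a, with 0.207 and 0.236 against 0.198 and 0.210. With the GC trend removed, the log2 fold change was -0.59 for Gfap, -0.13 for Aqp4 and -0.16 for Abca8a. Summed over 6 astrocyte markers, the adjusted counts were 4803 and 4888 in subjective day, compared with 5776 and 5052 in objective day, and none of the 6 markers passed the threshold. Only Gja1, the gap junction protein connexin 43, did not overlap between conditions, with adjusted counts of 1450 and 1940 against 2323 and 1984, while the median log2 fold change of the 6 was 0.012 and 2 of them were negative. Summed over 6 oligodendrocyte markers, which in the eye mark the myelinated optic nerve behind it, they were 2336 and 4607 (subjective day) against 2293 and 2375 (objective day). Subjective day replicate 2 stood apart, with an adjusted count of 2684 for Mbp against 1267 to 1367 in the other samples, and of 425 for Mobp against 4.96 to 33.7, both myelin genes. No marker of either list was at 0 in any sample, and their part in the difference of Gfap was not tested. Without subjective day replicate 2, the log2 fold change of Gfap was -0.41 with an adjusted p of 0.0122 from limma's test, in a fit whose spread comes from the objective day pair and limma's prior, with the lone subjective day sample assumed to vary alike.

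Serpina3n (ENSMUSG00000021091) encodes a secreted inhibitor of serine proteases and is widely used as a marker of reactive astrocytes. Its position in GRCm38 is chromosome 12, from base 104406729 to base 104414329, plus strand. Serpina3n had adjusted counts of 411 and 483 in subjective day, compared with 808 and 741 in objective day. Both objective day samples were far above the subjective day samples, and the conditions did not overlap. On the log2 scale the difference was 0.80 with a standard error of 0.10 (adjusted p = 0.00662) and a 95% confidence interval from 0.55 to 1.04, and after removal of the GC trend it was 0.71 (adjusted p = 0.0361). Serpina3n belongs to a cluster of closely related genes whose reads can be shared or discarded in counting. The 4 others of the cluster that were analysed here had adjusted counts between 0.940 and 31.0. The ratio of Serpina3n to Gfap within a sample was 0.202 and 0.216 (subjective day) against 0.536 and 0.472 (objective day), or 2.41-fold higher in objective day by the means.

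**Figure D2:**
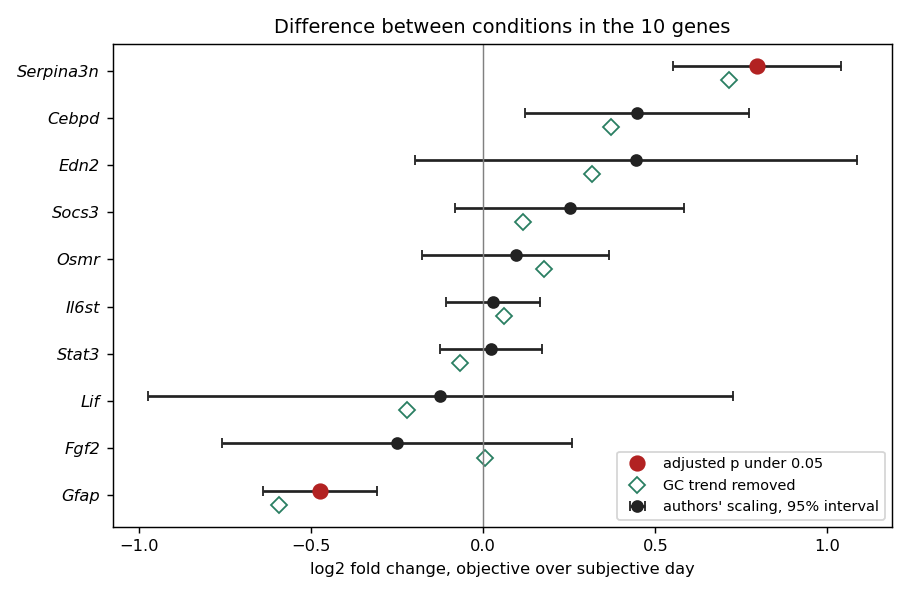
Log2 fold change of objective over subjective day (x axis) for each of the 10 genes (y axis), with the authors' scaling (circles with 95% confidence intervals, red where the adjusted p was under 0.05) and with the GC trend of every sample removed (open diamonds). Serpina3n at 0.80 and Gfap at -0.47 stand apart on opposite sides, and the intervals of Lif, Edn2 and Fgf2 are the widest.

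Because Gfap, Socs3 and Serpina3n are all known to respond to Stat3 signaling but differed in direction or size here, the sequence around their starts was searched for the STAT binding motif TTCNNNGAA and for its stricter form TTCCNGGAA, which is a subset of the first. Both read the same on either strand. Windows ran from 250 bases before to 50 bases after the start in RefSeq on GRCm38.p6, where 9 of the 10 genes had an entry. RefSeq's starts of Gfap and Socs3 lie inside the GENCODE limits of these genes, which reach further upstream. The motif TTCNNNGAA occurred in 2 of the 9 (Gfap and Socs3) and in 8.30% of all 32851 windows, and TTCCNGGAA in 1 of the 9 (Gfap) and in 1.15% of all windows. The stretches below are shown 5′ to 3′ on the strand of the gene with the motif in capitals. Gfap is shown from 100 bases before to 10 bases after its start (chr11:102897191-102897300, minus strand), with the motif beginning 2 bases before the start. Socs3 is shown from 200 to 101 bases before its start (chr11:117969467-117969566, minus strand), with the motif beginning 154 bases before it. Serpina3n, which had no match in its window, is shown for the 100 bases before its start (chr12:104406608-104406707, plus strand).
Gfap: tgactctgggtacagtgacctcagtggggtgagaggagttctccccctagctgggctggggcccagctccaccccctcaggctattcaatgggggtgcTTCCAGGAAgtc
Socs3: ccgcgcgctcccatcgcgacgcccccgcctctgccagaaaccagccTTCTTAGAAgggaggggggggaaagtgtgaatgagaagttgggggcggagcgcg
Serpina3n: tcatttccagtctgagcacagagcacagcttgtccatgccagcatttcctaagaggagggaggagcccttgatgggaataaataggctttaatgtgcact
A match describes the letters only, and binding was not measured.

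Expression levels were compared between genes as adjusted counts per kilobase of exon. Gfap ranked first of the 10 by the mean of all samples, with a range from 357 to 530 per kilobase, and its range overlapped that of Il6st, from 416 to 436. Serpina3n followed with 199 to 392 per kilobase, a range that enclosed that of Stat3, from 270 to 290. In both subjective day samples Gfap was above Il6st and Serpina3n was below Stat3. In both objective day samples Gfap was below Il6st and Serpina3n was above Stat3, and Gfap at 357 and 372 per kilobase overlapped Serpina3n at 392 and 359. Osmr (45.3 to 57.0 per kilobase), Socs3 (43.2 to 55.6) and Cebpd (41.3 to 61.6) had ranges that overlapped each other. Edn2 was lower, with 20.5 to 37.0 per kilobase, followed by Fgf2 with 7.61 to 10.2 and Lif with 3.06 to 4.58, and no sample of one of these overlapped a sample of the next. The ligands therefore had the lowest levels per kilobase.

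The genes of gp130 signaling, those of the 10 that take part in it included, were examined by a list of 58 genes, of which 50 passed the filter. In limma's test 0 of the 50 were higher and 3 were lower in objective day, or 3 of 50 against the background of 8.51%. The median log2 fold change of the 50 genes was 0.093. The 3 that fell were Jak2, a Janus kinase bound to gp130, and Socs4 and Socs6, inhibitors that act mainly on growth factor and other receptors. Jak2 had adjusted counts of 1635 and 1682 in subjective day, compared with 1246 and 1236 in objective day (log2 fold change -0.42, adjusted p = 0.00975). Socs4 had a log2 fold change of -0.34 (adjusted p = 0.0313) and Socs6 of -0.38 (adjusted p = 0.0283). The transcripts of these genes have low GC contents of 44.3%, 38.5% and 39.9%, and with the GC trend removed 0 of the 50 genes passed, with log2 fold changes of -0.27 for Jak2, 0.12 for Socs4 and 0.0061 for Socs6. Leaving out objective day replicate 1 or 2 reduced the count to 1 and 0, and leaving out subjective day replicate 1 raised it to 6.

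Among the gp130 ligands, 5 of 9 genes passed the filter and none passed the test. Il11 had the largest difference, with adjusted counts of 14.0 and 12.2 in subjective day against 8.48 and 10.5 in objective day (log2 fold change -0.43, adjusted p = 0.554, and -0.50 without the GC trend). Cntf, ciliary neurotrophic factor, was as low as Lif, with adjusted counts of 14.0 and 13.3 in subjective day, compared with 18.9 and 18.2 in objective day (log2 fold change 0.42, adjusted p = 0.494, and 0.46 without the GC trend). Il27 was below the filter, and Il6, Osm and Clcf1 had no entry by these names in the deposited data. Of 6 receptor genes tested none passed. Lifr, which completes the Lif receptor, was nearest, with adjusted counts of 3934 and 4482 in subjective day against 3374 and 3635 in objective day (log2 fold change -0.26, adjusted p = 0.0921, and -0.11 without the GC trend). The 16 tested targets of Stat3, which include Socs3 and Cebpd, held 13 genes with a positive and 3 with a negative log2 fold change and a median of 0.19, but 0 passed the test. After removal of the GC trend that median was 0.078, and the signs were not compared with those of all genes tested. Lcn2, the iron-binding acute phase protein lipocalin 2, came closest, with adjusted counts of 98.9 and 95.4 in subjective day, compared with 147 and 145 in objective day (log2 fold change 0.58, adjusted p = 0.0532, and 0.47 with an adjusted p of 0.183 after removal of the GC trend).

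**Figure D3:**
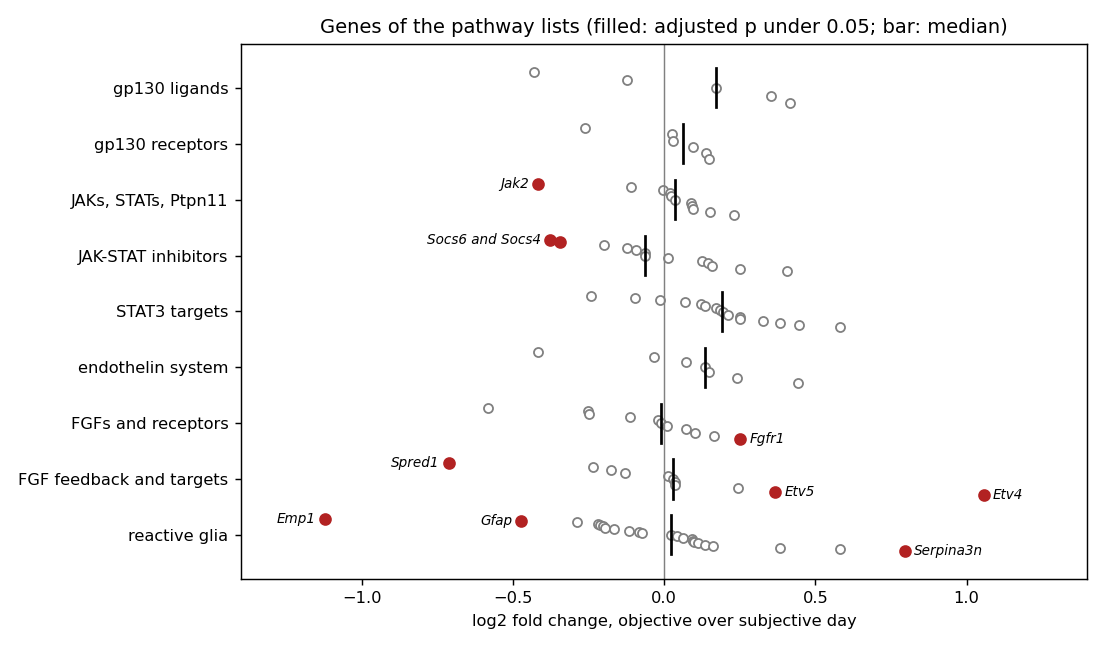
Log2 fold change of objective over subjective day (x axis) for each tested gene of 9 lists (y axis), with genes past an adjusted p of 0.05 in red and named and the median of each list as a black bar. The medians lie between -0.063 and 0.19, and the called genes are few and lie on both sides of 0.

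Around Edn2 and Fgf2, 29 genes of the endothelin system, the FGF ligands and receptors, and the feedback regulators and targets of FGF signaling were all tested. Of these 3 were higher and 1 was lower in objective day, or 4 of 29 against the backgrounds of 1.06% higher and 7.45% lower, with a median log2 fold change of 0.028. None of the 7 endothelin genes passed, and Edn2 had the largest log2 fold change of the 7. Ednrb, an endothelin receptor, differed almost as much in the other direction and was nearer the threshold, with adjusted counts of 1124 and 905 in subjective day against 785 and 727.5 in objective day (log2 fold change -0.42, adjusted p = 0.0629, and -0.25 with an adjusted p of 0.384 after removal of the GC trend). Fgfr1, a receptor for Fgf2, was higher, with adjusted counts of 1550 and 1512 in subjective day against 1838 and 1807 in objective day (log2 fold change 0.25, adjusted p = 0.0485), but 0.13 with an adjusted p of 0.347 after removal of the GC trend. Etv4 and Etv5, transcription factors of the ETS family that FGF signaling induces, were higher too. Etv4 had adjusted counts of 182 and 157 in subjective day, compared with 339 and 365 in objective day (log2 fold change 1.06, adjusted p = 0.00559), and it was 0.92 with an adjusted p of 0.0275 after removal of the GC trend. The log2 fold change of Etv5 was 0.37 (adjusted p = 0.0291), and 0.29 with an adjusted p of 0.134 after removal of the trend. Spred1, an inhibitor of Ras and ERK signaling, fell, with adjusted counts of 2206 and 2508 in subjective day against 1422 and 1450 in objective day (log2 fold change -0.71, adjusted p = 0.00559, and -0.40 with an adjusted p of 0.0439 after removal of the trend). The feedback inhibitors Spry1, Spry2, Spry4 and Dusp6, also in the list, and likewise tested, did not pass the test. The count of 4 became 2 when either objective day sample was left out.

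In the list of 26 genes that mark reactive glia, 23 were tested. Gfap and Emp1 were lower and Serpina3n was higher in objective day, or 3 of 23 against the background of 8.51%, and the median log2 fold change was 0.023. Emp1, epithelial membrane protein 1, had adjusted counts of 1698 and 1574 in subjective day, compared with 717 and 784 in objective day (log2 fold change -1.12, adjusted p = 0.00531, and -1.01 with an adjusted p of 0.00972 after removal of the GC trend). Emp1 is also made by the epithelium of the eye surface. The 10 markers of that epithelium summed to between 13389 and 13813 in subjective day and between 4657 and 7274 in objective day. Of the 9 tested, 7 were lower and none higher, against 7.45% lower among all genes tested. With the GC trend removed 4 passed, against 1.07% of all genes. None of these markers was at 0 in any sample, and their part in the differences of Emp1 and of the 10 genes was not tested. The other 20 tested genes of reactive glia, among them Vim, Nes, Cd44, S1pr3, Lcn2, Timp1, Synm and Cp, did not pass the test.

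Markers of the retinal cell types that the labels imply were present, and so were those of lens and surface epithelium, although the anterior eye had been removed. Rod markers summed to between 1929130 and 2431567 adjusted counts per sample, and 0 of 6 passed the test. The largest difference among them was that of Sag, rod arrestin (log2 fold change 0.51, adjusted p = 0.0714). The 10 Müller glia markers summed to 185389 and 167732 (subjective day) against 178898 and 167425 (objective day), which overlapped. Of these 10 genes, 3 were lower in objective day, against 7.45% of all genes tested. They were Slc1a3, the glutamate transporter GLAST, Aqp4 and Abca8a, with log2 fold changes of -0.34, -0.44 and -0.36 (adjusted p = 0.0166, 0.00707 and 0.0152). With the GC trend removed, 0 of the 10 passed and these values were -0.25, -0.13 and -0.16. The markers of microglia and macrophages, the other cells that take part in retinal stress, summed to between 2989 and 3671 in subjective day and between 3506 and 3579 in objective day, and 7 of the 10 had a positive log2 fold change (median 0.12, or 0.015 with the GC trend removed). Among those that did not pass, the conditions did not overlap for 5, a share near the 56.1% of all genes tested. Aif1, C1qa and C1qb had log2 fold changes of 0.61, 0.41 and 0.41 (adjusted p = 0.182, 0.185 and 0.137), or 0.53, 0.27 and 0.29 with the GC trend removed. Ptprc and Mrc1 had log2 fold changes of -0.58 and -0.51 (adjusted p = 0.136 and 0.202), or -0.17 and -0.31 with the GC trend removed. P2ry12, a receptor of resting microglia, was the 1 of 10 to pass, against 8.51% of all genes tested. It had adjusted counts of 154 and 179 in subjective day, compared with 102 and 76.3 in objective day (log2 fold change -0.90, adjusted p = 0.0301, and -0.44 with an adjusted p of 0.323 after removal of the GC trend).

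**Figure D4:**
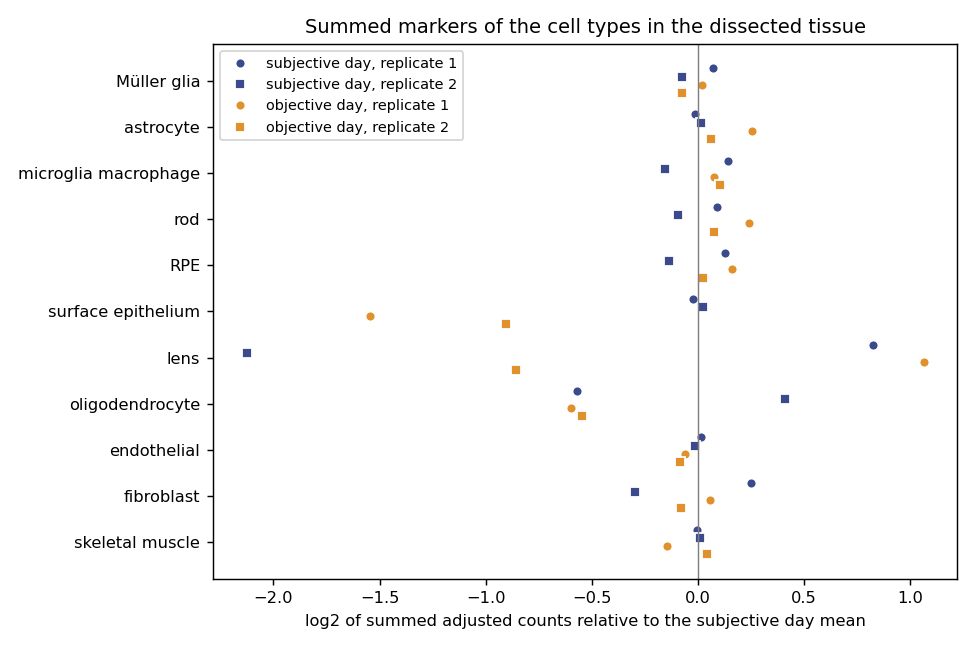
Summed adjusted counts of the markers of each cell type (y axis) in each sample, as log2 relative to the mean of the subjective day samples (x axis), with subjective day in blue and objective day in orange. Müller glia, astrocyte, microglia, rod, RPE and endothelial sums lie at most 0.25 from 0, whereas surface epithelium is lower in both objective day samples, lens sums split by replicate number, and the oligodendrocyte sum is high in subjective day replicate 2.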

How the data were processed

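RNA-seq of 4 eye samples was analysed, 2 from each condition. Per the labels and the paper, the authors aligned reads with TopHat2 2.0.9 and Bowtie2 2.1.0 to mouse Ensembl release 72, counted genes with HTSeq and used edgeR. The authors deposited a signal for each gene in each sample, in the form of fractional counts equalized to a common library size, which hides the sequencing depth. The table also holds the authors' own fold change, mean expression and p-values, which were not used. Genes that reached 10 in 2 or more samples were compared on log2(value + 1) with limma 3.58.1 in R 4.3.3, letting the variance prior depend on mean expression, Benjamini-Hochberg adjustment over all genes tested and a threshold of 0.05. Confidence intervals are limma's and are not adjusted for multiple genes.

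GC content (of the longest transcript), exon length and positions came from GENCODE M21, a later annotation of GRCm38, and GC content was known for 98.6% of genes tested. The GC trend was removed in each sample by local regression with a span of 0.3. Promoter windows came from RefSeq. The fit was also run on simulated counts with the same dispersion for every gene, no GC trend and no shared deviation of same-numbered samples. That run does not bear on these features of the data, and its outcome is not given here. The 10 genes and all lists were chosen with earlier results of these data known. Named genes are the 10, the genes of each list past the threshold and, where none passed, the gene with the largest difference; other genes were named after their values were seen. Alternatives covered scaling, filter, pseudocount, variance model, GC content, the replicate number as a block and each sample left out. Figures used matplotlib 3.10.9.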

Additional observations from a re-analysis of the deposited data

How the results depend on the processing

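Across the 15 alternatives, Gfap stayed lower (log2 fold change -0.59 to -0.41) and Serpina3n higher (0.68 to 0.91), and both passed the threshold in 14. With a variance prior that does not follow the mean, 0 of the 10 genes, 0 of the gp130, 0 of the endothelin and FGF, 0 of the reactive glia and 0 of all genes passed by limma (3586 of all genes had an unadjusted p under 0.05, against 4512), with adjusted p values of 0.131 for Gfap and 0.126 for Serpina3n. Samples with the same number deviated together (correlation 0.319 across genes), but the labels do not say that a number marks a shared animal or batch. In a fit blocked by replicate number, 3613 of all genes, 7 gp130, 8 endothelin and FGF and 5 reactive glia genes were called, and of the 10 genes Cebpd joined Gfap and Serpina3n (adjusted p = 0.0476, but 0.149 with the GC trend removed as well), and Ednrb (0.00734), Lifr (0.00829) and Lcn2 (0.0292) passed too. After removal of the GC trend 188 of all genes, 0 gp130 and 2 endothelin and FGF genes were called, Fgf2 turned to 0.0062 and Stat3 to -0.068; with the block as well, 1 gp130 gene was called. Leaving out each sample in turn, which leaves 1 sample in a condition that is assumed to vary like the other pair, gave 2 of the 10 genes each time, 664 (without objective day replicate 2) to 2557 (without subjective day replicate 1) of all genes, with 736 without objective day replicate 1, 0 to 6 gp130, 2 to 6 endothelin and FGF and 3 reactive glia genes; log2 fold changes ran from -0.40 to 0.15 for Lif, -0.029 to 0.22 for Osmr and -0.027 to 0.074 for Stat3, so these 3 have no stable direction. The cause of these shifts was not tested. Lif, Edn2 and Fgf2 had the lowest values and the widest intervals of the 10, and counting error was not separated from the spread between samples.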

Other observations

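The remaining tissues of the dissected eye were compared by their markers only. Of 6 tested RPE markers 0 passed the test, and the 7 markers together summed to between 67794 and 81401 adjusted counts in subjective day and between 75775 and 83207 in objective day. Rdh5, a retinol dehydrogenase, had the largest difference (log2 fold change 0.35, adjusted p = 0.0921). Endothelial markers of the choroid and retina summed to between 18380 and 18778 and between 17539 and 17827, with 0 of 6 passing and the largest difference in Vwf, von Willebrand factor (log2 fold change 0.20, adjusted p = 0.293). Fibroblast markers of the sclera overlapped between conditions in their sum, and 1 of 6 passed, against 8.51% of all genes tested. It was Lum, the collagen-binding proteoglycan lumican (log2 fold change -0.74, adjusted p = 0.0477, and -0.47 with an adjusted p of 0.324 after removal of the GC trend). The log2 fold change was positive for 4 of the 6 (median 0.11), with 0.38 for Fmod (adjusted p = 0.0599) and 0.40 for Col1a1 (adjusted p = 0.137). Markers of extraocular muscle summed to between 37836 and 43079 in all samples, with 0 of 6 passing and the largest difference in Myh13, a myosin heavy chain of these muscles (log2 fold change -1.49, adjusted p = 0.122). Lens markers summed to 36067 and 42514 in the samples numbered 1 of subjective and objective day and to 4666 and 11249 in those numbered 2, so the lens differed more between samples of a condition than between conditions, and Mip, the most different of them, had a log2 fold change of 1.20 (adjusted p = 0.512). In surface epithelium, Krt5, Krt14, Krt15, Aldh3a1, Dsp, Perp and Sfn passed, with log2 fold changes from -1.46 for Krt15 to -0.71 for Dsp, and Krt12 was below the filter. With the GC trend removed, 4 of these passed (Krt5, Krt14, Dsp and Perp).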
